A study of Arabidopsis thaliana with 15 samples.

Results

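The genes described here are the 6 enzymes and enzyme-like proteins that lead to flavonols in Arabidopsis thaliana and the 3 MYB transcription factors known to activate them. They were chosen by locus for their place in the pathway, with earlier results of these data known. They make up 9 of the 33601 loci in the count table. The enzymes are CHS (AT5G13930), CHI (AT3G55120), CHIL (AT5G05270), F3H (AT3G51240), F3'H (AT5G07990) and FLS1 (AT5G08640), and the regulators are MYB11 (AT3G62610), MYB12 (AT2G47460) and MYB111 (AT5G49330). Polyadenylated RNA was sequenced from whole rosettes of 5 genotypes in the Columbia-0 background, with 3 libraries per genotype. The genotypes were ref4-1 and ref4-3, which carry different alleles of the Mediator subunit gene MED5B, cdk8-1, a mutant of the Mediator kinase gene CDK8, the double mutant ref4-3 cdk8-1, and the wild type (WT). The ref4 alleles are known as semi-dominant point mutations and cdk8-1 as an insertion, so the ref4 genotypes still make a MED5B transcript. All plants were 20 days old, grew at 23 C in 16 h of light and 8 h of dark, had no treatment named and were harvested 6.5 h after subjective dawn. Each library pooled 5 rosettes from different pots, so a library averages plants and organs, and fewer cells of a type cannot be told apart from less RNA per cell.

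Flavonols are colourless ultraviolet screens and antioxidants that branch from the general phenylpropanoid pathway. Chalcone synthase (CHS) joins p-coumaroyl-CoA with malonyl-CoA, chalcone isomerase (CHI) closes the ring, flavanone 3-hydroxylase (F3H) makes dihydroflavonols and flavonol synthase (FLS1) turns these into flavonols. Flavonoid 3'-hydroxylase (F3'H) adds the hydroxyl group that separates quercetin from kaempferol, and CHIL is a CHI-like protein with no isomerase activity of its own that aids CHS. MYB11, MYB12 and MYB111 are closely related R2R3-MYB proteins that activate CHS, CHI, F3H and FLS1 without a bHLH partner, and they are known to work in different parts of the seedling. The sequences they recognise, called MYB-recognition elements, often stand near an ACGT core bound by bZIP factors such as HY5.

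The MYB-recognition elements near the coding starts are shown because they are where the 3 regulators are known to act. The search took the 500 genomic bases before each coding start in TAIR10.1 (RefSeq), on both strands, for the letters ACCTACC, the letters ACCTAAC, the letters ACCAACC and the letters ACCAAAC. A match was found in 5 of the 9 genes, against 25.8% of 27438 genes. Each site below is written in the direction of its gene with 7 bases on either side, and the capitals mark the match, which reads GGTAGGT or GTTAGGT where it lies on the other strand.
CHS, chr5:4488611-4488631, plus strand: ccatctaACCTACCacactct
CHS, chr5:4488689-4488709, plus strand: caaatacACCTAACttgttta
CHI, chr3:20431503-20431523, minus strand: tattgctACCTACCcttctct
CHIL, chr5:1563169-1563189, plus strand: ttcatttGTTAGGTagaatga
CHIL, chr5:1563341-1563361, plus strand: ttatgttACCTACCaccagtc
F3H, chr3:19025259-19025279, plus strand: gtaccgtGGTAGGTagctagc
FLS1, chr5:2803809-2803829, plus strand: acttggtACCAAACtcgtgag
The 2 matches of CHS lay 144 to 138 and 66 to 60 bases before its coding start, and that of CHI lay 101 to 95 bases before. Those of CHIL lay at 316 to 310 and 144 to 138 bases, that of F3H at 143 to 137 and that of FLS1 at 193 to 187. Both matches of CHS, those of CHI and F3H and the nearer one of CHIL lay after the annotated transcript start. In F3'H and the 3 MYB genes these letters did not occur in this window. An ACGT core, which also lies inside every G-box (CACGTG), occurred in 8 of the 9 windows against 62.6% of genes, and a G-box in those of CHI, CHIL, F3H and MYB12 against 9.34% of genes.

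**Figure D1:**
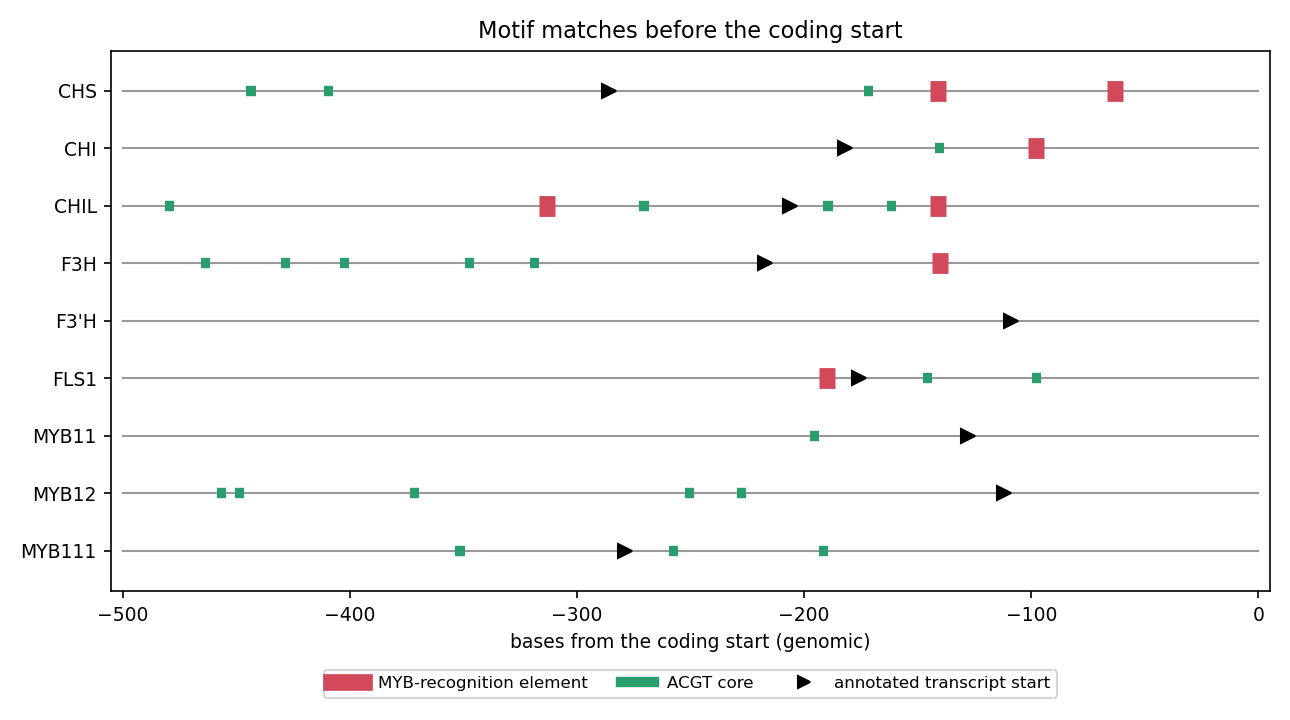
Matches of the MYB-recognition element (red) and of the ACGT core (green) in the 500 genomic bases before the coding start of each gene, with the annotated transcript start as a black triangle. The x axis is the distance from the coding start in bases. CHS, CHI, CHIL, F3H and FLS1 hold a MYB-recognition element, and F3'H holds neither motif.

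The promoters of FLS1 and of its 3 regulators are given in full. In the results below FLS1 and MYB111 were highest in ref4-3 cdk8-1, and MYB11 and MYB12, like F3H and F3'H, in ref4-3. Each line is the 250 bases before the annotated transcript start, read in the direction of the gene, and capitals mark a MYB-recognition element (FLS1) or an ACGT core (the MYB genes).
FLS1, chr5:2803583-2803832, plus strand: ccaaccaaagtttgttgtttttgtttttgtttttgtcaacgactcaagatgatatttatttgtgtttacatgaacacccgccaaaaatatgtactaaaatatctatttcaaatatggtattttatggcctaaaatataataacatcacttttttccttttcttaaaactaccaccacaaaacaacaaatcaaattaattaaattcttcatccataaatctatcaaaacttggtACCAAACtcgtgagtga
MYB11, chr3:23154380-23154629, plus strand: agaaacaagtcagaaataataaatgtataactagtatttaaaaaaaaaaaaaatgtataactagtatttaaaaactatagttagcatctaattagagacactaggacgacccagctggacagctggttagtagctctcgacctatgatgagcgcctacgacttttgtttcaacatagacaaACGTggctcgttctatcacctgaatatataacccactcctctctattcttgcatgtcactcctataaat
MYB12, chr2:19476076-19476325, plus strand: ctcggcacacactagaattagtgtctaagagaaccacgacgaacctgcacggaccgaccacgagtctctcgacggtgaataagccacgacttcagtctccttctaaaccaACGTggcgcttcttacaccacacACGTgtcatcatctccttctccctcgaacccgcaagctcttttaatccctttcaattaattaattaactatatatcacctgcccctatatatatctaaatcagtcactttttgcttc
MYB111, chr5:20001573-20001822, minus strand: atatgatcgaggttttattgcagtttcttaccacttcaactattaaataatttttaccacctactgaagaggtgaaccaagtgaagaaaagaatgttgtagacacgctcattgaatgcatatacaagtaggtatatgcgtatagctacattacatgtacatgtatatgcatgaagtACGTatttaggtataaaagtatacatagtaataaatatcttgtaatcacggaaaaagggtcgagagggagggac
The match in FLS1 lies 17 to 11 bases before its transcript start. In MYB12, 1 of the 2 ACGT cores is part of a G-box, 118 to 113 bases before the start. MYB11 and MYB111 have 1 ACGT core each. Over windows of this kind a MYB-recognition element occurred in 2 of the 9 genes, CHIL and FLS1, against 13.7% of 27438 promoters. A G-box occurred in 4 of the 9 against 6.49%, and an ACGT core in 6 against 44.1%. A match describes letters and not binding, and no member of this group was assayed for binding.

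The libraries held 9573567 to 16803904 gene counts. Levels are given as normalised CPM, which are counts scaled to one library size with edgeR's TMM factors. Fold changes are log2 values ± SE with n = 3 per genotype, and the quasi-likelihood test of edgeR was adjusted by Benjamini-Hochberg over all 18935 genes tested. "Rose" and "fell" are used where the adjusted p was under 0.05. Comparisons with WT all share the same 3 WT libraries. CDK8 transcript averaged 4.51 ± 0.170 CPM in cdk8-1 and 5.41 ± 1.10 CPM in ref4-3 cdk8-1, against 19.5 ± 1.28 CPM in WT, while a MED5B transcript level cannot check a point mutation. The third ref4-1 library had the lowest total and stood farthest from its replicates. CHS, F3H and MYB11 overlap an annotated gene on the other strand, and the sources used here do not say how the counting treated strand. The partners of CHS and F3H held at most 7 and 4 counts in any library, and that of MYB11 was not analysed here.

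CHS, CHIL, F3H, F3'H and FLS1 transcripts rose in both MED5B mutants against WT, and so did the genes of all 3 MYB regulators, while CHI passed the test in neither. F3H and F3'H differed most among the enzymes and MYB11 and MYB12 most among the regulators. In cdk8-1, CHI, CHIL, F3H, FLS1 and MYB111 rose, and CHS, F3'H, MYB11 and MYB12 gave no call. In ref4-3 cdk8-1, FLS1 and MYB111 stood above every other genotype, whereas F3H, F3'H, MYB11 and MYB12 fell below ref4-3. MYB11 and MYB12 exceeded 1 CPM in the 3 genotypes that carry a ref4 allele and in no WT or cdk8-1 library, so they entered the test through the genotypes where they are high, and the counts that follow leave them out.

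Of the other 7 genes, 6 rose in ref4-1 against WT, where 10.7% of all tested genes rose. In ref4-3 against WT 6 of 7 rose, against 20.2% of all tested genes. In cdk8-1 against WT 5 of 7 rose, against 8.08%, and in ref4-3 cdk8-1 against WT 7 of 7 rose, against 20.9%. None of the 7 fell in any of these 4 comparisons. The genes were chosen with earlier results of these data known, so these counts describe the set and are no independent test. Of all tested genes 10.3% fell in ref4-1 and 19.7% in ref4-3, while 11.5% fell in cdk8-1 and 21.7% in the double mutant, each against WT. The median log2 fold change of the 6 enzymes was 1.32 in ref4-1 and 1.67 in ref4-3, and it was 0.73 in cdk8-1 and 1.27 in the double mutant, each against WT. Over all genes tested the median was 0.015 in ref4-1 and 0.020 in ref4-3, and it was 0.0019 in cdk8-1 and 0.017 in the double mutant. In ref4-3 cdk8-1 against ref4-3 2 of 7 rose, against 16.0% of tested genes, and 2 fell, against 16.7%. In ref4-3 cdk8-1 against cdk8-1 4 of 7 rose, against 16.3%, and in ref4-3 against ref4-1 2 of 7 rose, against 4.66%, and none fell, against 6.41%. Counting both directions, 21.0% of all tested genes passed in ref4-1 and 39.8% in ref4-3, each against WT. The share was 19.6% in cdk8-1 and 42.5% in the double mutant against WT, 32.7% in the double mutant against either single mutant and 11.1% in ref4-3 against ref4-1.

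**Figure D2:**
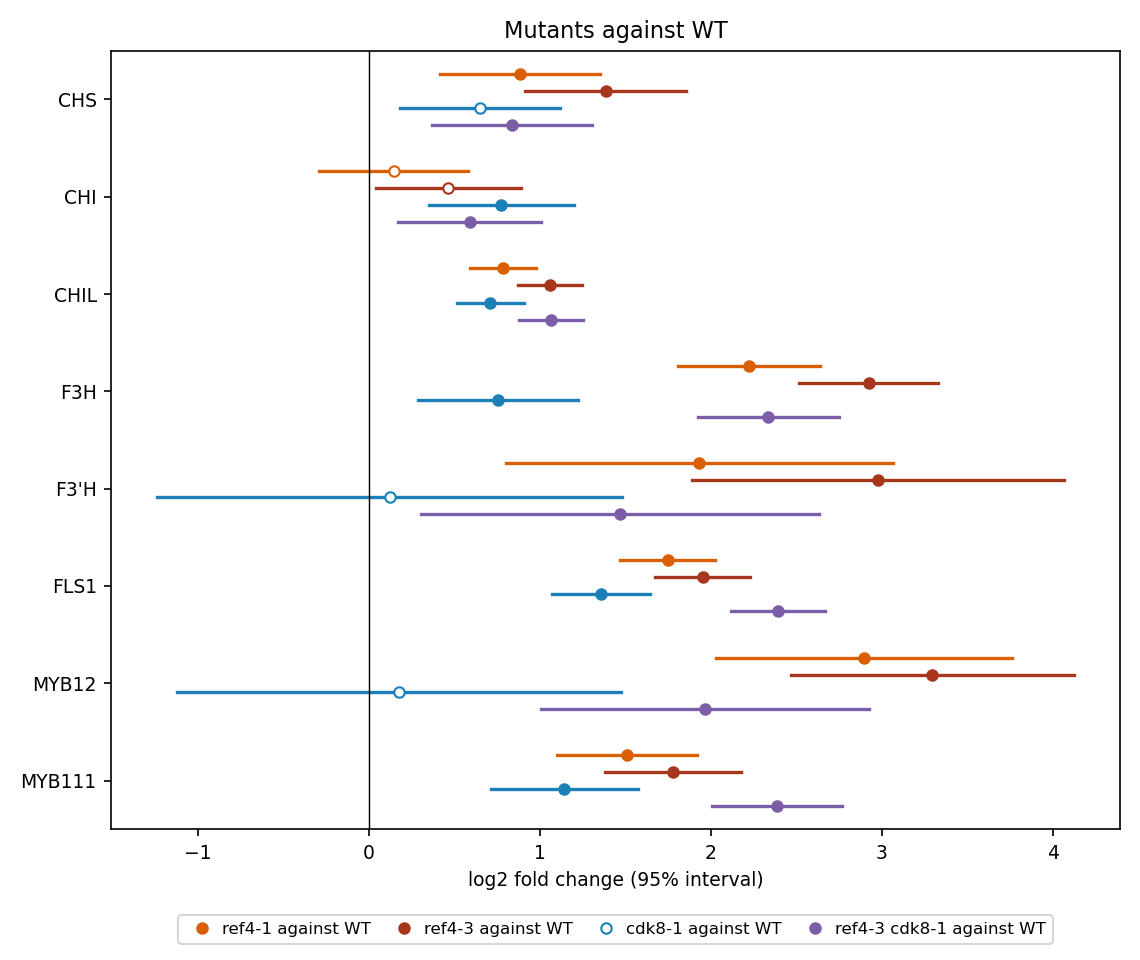
Log2 fold change of each gene against WT (x axis) for ref4-1, ref4-3, cdk8-1 and the double mutant, with bars for the 95% interval of the quasi-likelihood fit; filled points passed the adjusted p of 0.05 and open points did not. MYB11 is left out because WT held 3 counts of it in all. MYB12, with 11 counts in WT, entered the test only through the genotypes with a ref4 allele. F3H, F3'H and MYB12 lie farthest to the right in ref4-3, at 2.92, 2.98 and 3.29.

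Levels per kilobase of exon set the genes in order, and the order differed between ref4-3 and WT. In ref4-3, CHS (154 ± 44.2 CPM per kb) was followed by F3H (49.2 ± 11.1), FLS1 (39.1 ± 2.55) and F3'H (34.7 ± 15.2), with CHIL (20.5 ± 1.65) and CHI (17.0 ± 4.54) last. Its regulators stood at 8.72 ± 1.68 CPM per kb for MYB111, 2.22 ± 0.0489 for MYB11 and 2.00 ± 0.402 for MYB12. In WT, CHS led with 59.1 ± 12.0 CPM per kb, followed by CHI with 12.2 ± 3.20, FLS1 with 10.1 ± 1.92 and CHIL with 9.82 ± 0.669. F3H (6.47 ± 0.679) and F3'H (4.40 ± 1.47) were the lowest enzymes in WT. Among the WT regulators MYB111 (2.55 ± 0.756 CPM per kb) stood above MYB12 (0.197 ± 0.0317), and MYB11, with 3 counts over the WT libraries, was at the limit of detection.

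CHS (chromosome 5, 4488476 to 4490264, plus strand, 2 exons) catalyses the first committed step. Its level was 185, 194 and 178 CPM in ref4-1, 204, 348 and 236 CPM in ref4-3, 139.9, 165 and 168 CPM in cdk8-1, 150.1, 180.0 and 209 CPM in ref4-3 cdk8-1, and 105, 118 and 78.2 CPM in WT. Every mutant library lay above every WT library, and 1 ref4-3 library stood far above the other two. CHS rose in ref4-3 by 1.38 ± 0.21 (adjusted p = 0.000371), in ref4-1 by 0.88 ± 0.21 (adjusted p = 0.0126) and in ref4-3 cdk8-1 by 0.84 ± 0.21 (adjusted p = 0.00829), all against WT in edgeR. In cdk8-1 the difference was 0.65 ± 0.21 with an adjusted p of 0.0551, and over 22 alternative settings, 7 of which passed the threshold, that value ran from 0.0100 to 0.167. Between ref4-3 cdk8-1 and ref4-3 it was -0.55 ± 0.21 (adjusted p = 0.0652 in edgeR, 0.0148 to 0.230 over the alternatives).

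CHI and CHIL belong to one protein fold but varied differently. CHI (chromosome 3, 20430059 to 20431597, minus strand, 4 exons), the isomerase, had 14.1, 16.4 and 14.5 CPM in ref4-1, 14.3, 24.3 and 18.1 CPM in ref4-3, 22.4, 24.7 and 22.8 CPM in cdk8-1, 17.9, 20.4 and 23.1 CPM in ref4-3 cdk8-1, and 14.6, 16.6 and 9.68 CPM in WT. The libraries of cdk8-1 and of the double mutant lay above WT, and those of both ref4 single mutants overlapped it. CHI rose in cdk8-1 by 0.77 ± 0.20 (adjusted p = 0.0127) and in ref4-3 cdk8-1 by 0.59 ± 0.19 (adjusted p = 0.0253), both against WT in edgeR. The call in ref4-3 cdk8-1 was lost without the second or the third library of that genotype or the third WT library (adjusted p 0.00425 to 0.0874 over the alternatives). Without the second cdk8-1 library the call in cdk8-1 was lost by a small margin (adjusted p = 0.0502; range over the alternatives 0.000281 to 0.0502). In ref4-1 CHI differed from WT by 0.14 ± 0.20 (95% interval -0.29 to 0.58) and in ref4-3 by 0.46 ± 0.20 (0.04 to 0.89, adjusted p = 0.0783 in edgeR). The difference in ref4-3 passed in 6 of 22 alternatives, among them the replicate block (adjusted p = 0.0331; range 0.0110 to 0.281).

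CHIL (chromosome 5, 1563286 to 1565324, plus strand, 5 exons) varied little among replicates, with a coefficient of variation between 5.26% and 8.05% in every genotype. It had 21.9, 23.4 and 25.3 CPM in ref4-1, 27.1, 31.0 and 27.0 CPM in ref4-3, 20.9, 23.1 and 22.8 CPM in cdk8-1, 26.7, 28.1 and 30.6 CPM in ref4-3 cdk8-1, and 13.2, 14.6 and 12.9 CPM in WT. All mutant libraries lay well above WT, and those of ref4-3 and the double mutant coincided. CHIL rose by 0.78 ± 0.093 in ref4-1, by 1.06 ± 0.091 in ref4-3, by 0.71 ± 0.094 in cdk8-1 and by 1.06 ± 0.090 in ref4-3 cdk8-1 against WT, with adjusted p from 2.97e-09 to 8.82e-06 in edgeR. It did not differ detectably between ref4-3 cdk8-1 and ref4-3 (0.0045, 95% interval -0.16 to 0.17) and was 0.35 ± 0.085 higher in ref4-3 cdk8-1 than in cdk8-1 (adjusted p = 0.00260 in edgeR).

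F3H and F3'H act in the middle of the pathway and had the largest fold changes among the enzymes in ref4-1 and ref4-3 against WT, while in ref4-3 cdk8-1 against WT that of FLS1 was larger. F3H (chromosome 3, 19025192 to 19026872, plus strand, 4 exons) had 40.1, 48.2 and 48.8 CPM in ref4-1, 58.3, 91.7 and 72.8 CPM in ref4-3, 16.2, 16.3 and 16.9 CPM in cdk8-1, 40.5, 49.6 and 57.9 CPM in ref4-3 cdk8-1, and 8.95, 10.9 and 9.43 CPM in WT. The 9 libraries with a ref4 allele were all above 40 CPM and those of cdk8-1 and WT all below 17 CPM. F3H rose 4.67-fold in ref4-1 (2.22 ± 0.19, adjusted p = 3.71e-06), 7.58-fold in ref4-3 (2.92 ± 0.19, adjusted p = 7.12e-08) and 5.05-fold in ref4-3 cdk8-1 (2.34 ± 0.19, adjusted p = 5.76e-07) in edgeR. Its rise in cdk8-1 was 0.76 ± 0.22 (adjusted p = 0.0267), and that call was lost without any 1 of the 3 cdk8-1 libraries, the first or the third WT library or the third ref4-1 library, with adjusted p from 6.84e-05 to 0.101 over the alternatives. In ref4-3 cdk8-1 it fell below ref4-3 by 0.59 ± 0.15 (adjusted p = 0.00993), a call lost when only these groups were fitted (adjusted p = 0.131; range over the alternatives 5.15e-05 to 0.131).

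F3'H (chromosome 5, 2560328 to 2563137, plus strand, 4 exons), the cytochrome P450 of the quercetin branch, had the highest coefficient of variation of the 9 genes in every genotype but cdk8-1, at 47.9% in ref4-1, 43.7% in ref4-3, 38.9% in ref4-3 cdk8-1 and 33.4% in WT, and it was 11.8% in cdk8-1. Its level was 30.3, 46.8 and 16.9 CPM in ref4-1, 42.5, 99.4 and 59.0 CPM in ref4-3, 8.43, 8.77 and 10.5 CPM in cdk8-1, 13.9, 24.4 and 32.1 CPM in ref4-3 cdk8-1, and 10.8, 9.39 and 5.30 CPM in WT. The ref4 genotypes lay above WT while their own replicates spread widely, and cdk8-1 overlapped WT. F3'H rose in ref4-3 by 2.98 ± 0.49 (adjusted p = 0.000665), in ref4-1 by 1.93 ± 0.51 (adjusted p = 0.0219) and in ref4-3 cdk8-1 by 1.47 ± 0.52 (adjusted p = 0.0441) in edgeR. The call in ref4-1 was lost without the second ref4-1 library, without the second or the third WT library and with these groups alone (adjusted p 0.000513 to 0.0884 over the alternatives). That in ref4-3 cdk8-1 was lost in 12 of 22 alternatives, among them each that left out a WT or cdk8-1 library (0.00540 to 0.140). In ref4-3 cdk8-1 F3'H fell below ref4-3 by 1.51 ± 0.42 on the log2 scale (adjusted p = 0.0176 in edgeR), a call lost without the second ref4-3 library, without the first double-mutant library and with these groups alone (adjusted p 0.00126 to 0.0849 over the alternatives). In cdk8-1 the difference from WT was 0.12 ± 0.61 (95% interval -1.24 to 1.48), which leaves room for changes of more than 2-fold either way.

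FLS1 (chromosome 5, 2803833 to 2805606, plus strand, 4 exons) makes the flavonols themselves. It had 49.2, 50.9 and 66.1 CPM in ref4-1, 67.9, 61.5 and 60.2 CPM in ref4-3, 38.7, 43.4 and 43.6 CPM in cdk8-1, 80.5, 82.7 and 94.9 CPM in ref4-3 cdk8-1, and 13.2, 19.4 and 16.3 CPM in WT. No mutant library overlapped WT, and the double mutant stood above all other libraries. FLS1 rose by 1.75 ± 0.13 in ref4-1, by 1.95 ± 0.13 in ref4-3, by 1.36 ± 0.13 in cdk8-1 and by 2.39 ± 0.13 in ref4-3 cdk8-1 against WT, with adjusted p from 3.49e-10 to 2.43e-06 in edgeR. It was also higher in ref4-3 cdk8-1 than in ref4-3 (0.44 ± 0.11, adjusted p = 0.00576) and than in cdk8-1 (1.04 ± 0.12, adjusted p = 3.94e-06). These 6 calls passed under every alternative run.

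Among the regulators MYB111 had its highest mean in ref4-3 cdk8-1, and MYB11 and MYB12 had theirs in ref4-3. MYB111 (chromosome 5, 19998823 to 20001572, minus strand, 3 exons) had 9.61, 13.6 and 12.2 CPM in ref4-1, 17.1, 11.7 and 13.9 CPM in ref4-3, 7.67, 10.2 and 9.84 CPM in cdk8-1, 22.4, 20.6 and 22.4 CPM in ref4-3 cdk8-1, and 3.44, 5.58 and 3.45 CPM in WT. As with FLS1, no mutant library overlapped WT and the double mutant stood highest. MYB111 rose by 1.51 ± 0.19 in ref4-1, by 1.78 ± 0.19 in ref4-3, by 1.14 ± 0.21 in cdk8-1 and by 2.38 ± 0.18 in ref4-3 cdk8-1 against WT, with adjusted p from 3.61e-09 to 0.000493 in edgeR. In ref4-3 cdk8-1 it was 0.61 ± 0.15 above ref4-3 (adjusted p = 0.00339) and 1.24 ± 0.16 above cdk8-1 (adjusted p = 7.10e-06).

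MYB12 (chromosome 2, 19476326 to 19479597, plus strand, 3 exons) had 39, 24 and 32 counts in ref4-1, 35, 45 and 44 in ref4-3, 3, 3 and 6 in cdk8-1, 16, 19 and 19 in ref4-3 cdk8-1, and 4, 3 and 4 in WT. It averaged 2.49 ± 1.01 CPM in ref4-1, 3.16 ± 0.636 CPM in ref4-3, 0.354 ± 0.155 CPM in cdk8-1, 1.25 ± 0.127 CPM in ref4-3 cdk8-1 and 0.311 ± 0.0502 CPM in WT. MYB12 rose against WT by 2.90 ± 0.42 in ref4-1 (adjusted p = 2.54e-05), 3.29 ± 0.40 in ref4-3 (adjusted p = 8.85e-07) and 1.97 ± 0.46 in the double mutant (adjusted p = 0.00160 in edgeR). In ref4-3 cdk8-1 it fell below ref4-3 by 1.33 ± 0.29 on the log2 scale (adjusted p = 0.00105 in edgeR), and the libraries of the 2 genotypes did not overlap. In cdk8-1 it differed from WT by 0.18 ± 0.63 (95% interval -1.12 to 1.48), on 12 counts in cdk8-1 and 11 in WT.

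MYB11 (chromosome 3, 23154630 to 23156585, plus strand, 3 exons) had 27, 36 and 28 counts in ref4-1, 44, 38 and 39 in ref4-3, 0, 1 and 1 in cdk8-1, 22, 25 and 23 in ref4-3 cdk8-1, and 1, 1 and 1 in WT. It was thus counted at 20 or more reads in the libraries with a ref4 allele and at 1 or none in the rest. With so few WT counts the ratio of normalised totals is given with an exact 95% interval for counting error. It was 26.1 (8.65 to 129) in ref4-1, 35.9 (12.0 to 177) in ref4-3 and 19.0 (6.23 to 94.3) in ref4-3 cdk8-1, each over WT. Between the double mutant and cdk8-1 it was 27.4 (7.30 to 231). In ref4-3 cdk8-1 MYB11 fell below ref4-3 by 0.92 ± 0.23 on the log2 scale (adjusted p = 0.00370 in edgeR), with 1.57 to 1.68 CPM in ref4-3 cdk8-1 against 2.97 to 3.10 CPM in ref4-3.

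**Figure D3:**
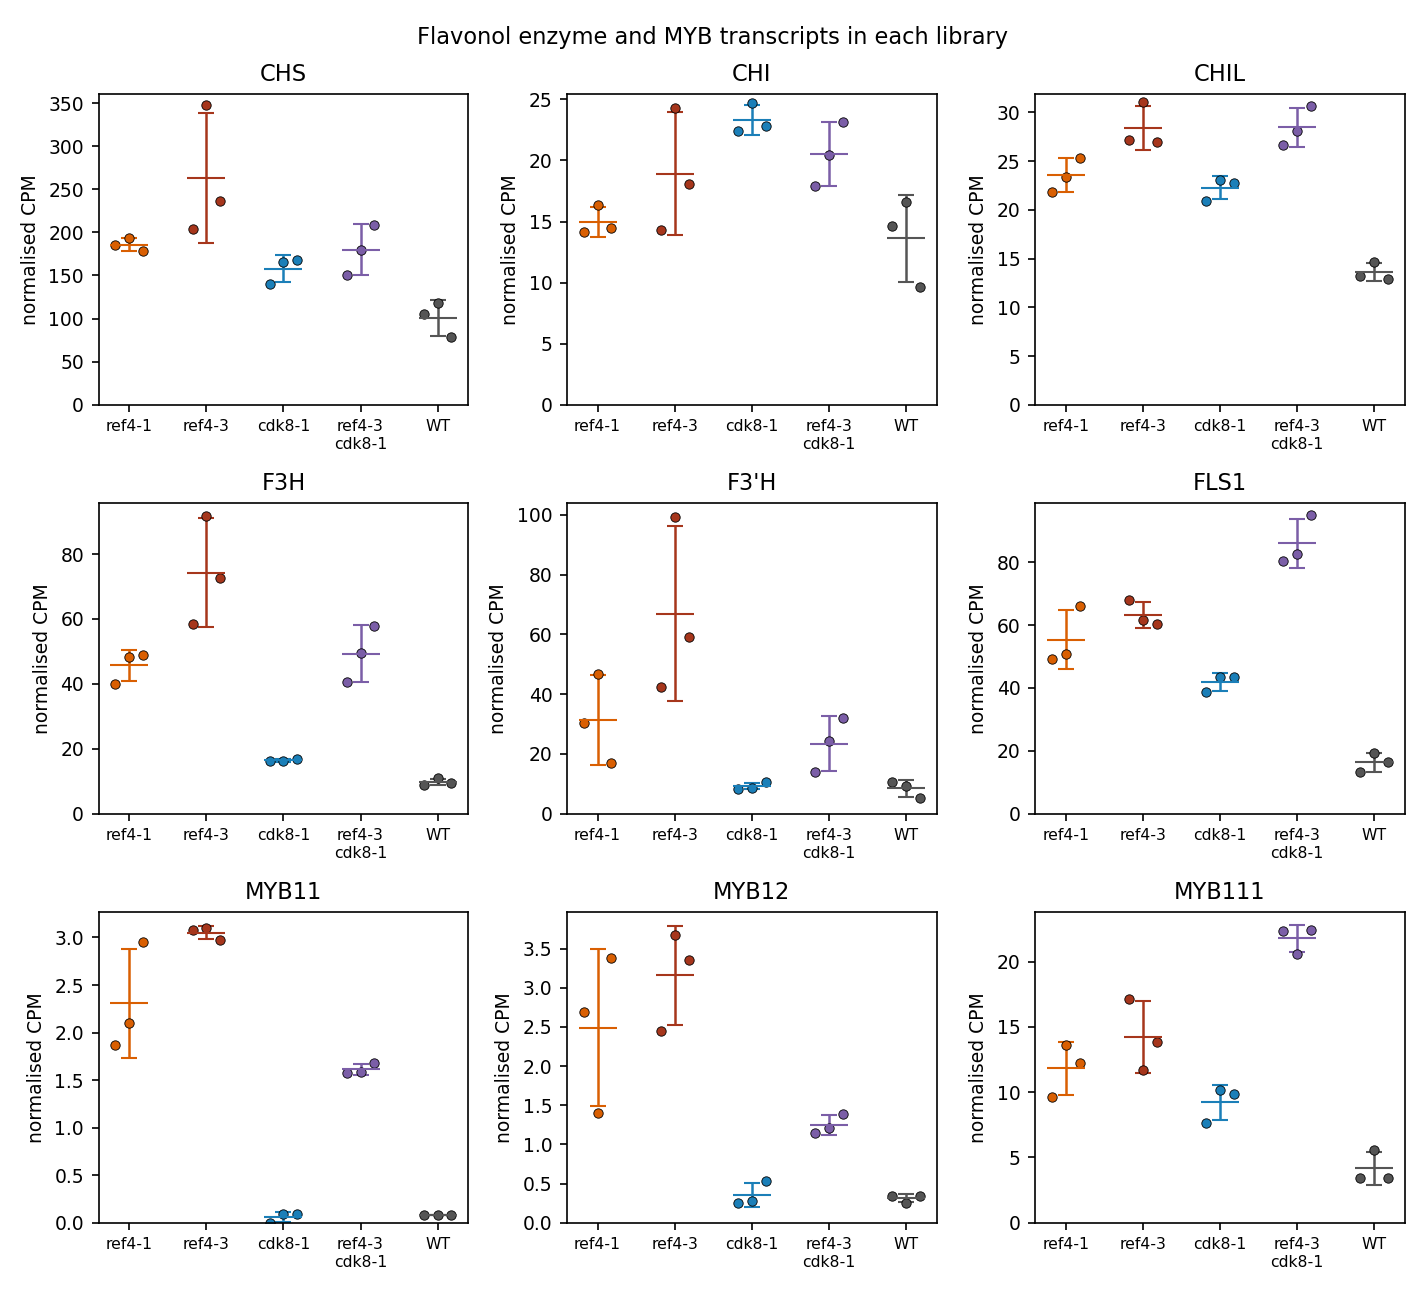
Normalised CPM of the 9 genes (y axis, linear, separate scale for each gene) in each library of ref4-1, ref4-3, cdk8-1, ref4-3 cdk8-1 and WT; points are libraries, and bars the mean and SD of 3 libraries. FLS1 and MYB111 are highest in ref4-3 cdk8-1, F3H, F3'H, MYB11 and MYB12 in ref4-3, and CHI in cdk8-1.

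The order of the 5 genotypes therefore differed between genes. For FLS1 and MYB111 the means ran ref4-3 cdk8-1, ref4-3, ref4-1, cdk8-1 and WT, with the double mutant clear of ref4-3 and cdk8-1 clear of WT. The libraries of ref4-3 and ref4-1 overlapped for both genes, and those of ref4-1 and cdk8-1 overlapped for MYB111. For F3H, F3'H, MYB11 and MYB12 ref4-3 led and cdk8-1 and WT were last, and for F3'H, MYB11 and MYB12 these last 2 overlapped. For CHI neighbouring genotypes overlapped at each step of the order. Between the alleles, ref4-3 was higher than ref4-1 past the threshold for CHIL (0.28 ± 0.084, adjusted p = 0.0366) and F3H (0.70 ± 0.15, adjusted p = 0.0130) in edgeR. The CHIL call was lost with DESeq2 and without the first or second ref4-1 or the second or the third ref4-3 library (adjusted p 0.00760 to 0.163 over the alternatives). Both were lost when only these 2 genotypes were fitted (0.108 for CHIL and 0.0813 for F3H, whose lowest value was 9.62e-05). FLS1 differed by 0.20 ± 0.11 (adjusted p = 0.281), and passed without the third ref4-1 library (adjusted p 0.0329 to 0.573 over the alternatives in edgeR and DESeq2).

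Whether the effect of ref4-3 differed between plants without and with CDK8 was tested as an interaction. The estimated effect of ref4-3 was lower without CDK8 in all 7 genes above 1 CPM in every library, and for 4 of them this difference passed the test, against 2.02% of all tested genes with a negative and 3.27% with a positive interaction (5.29% in all). For F3H the effect was 1.58 without CDK8 and 2.92 with it, a difference of -1.34 ± 0.26 (adjusted p = 0.0116). For CHIL the effect was 0.35 without CDK8 and 1.06 with it (difference -0.71 ± 0.12, adjusted p = 0.00162), and for FLS1 it was 1.04 without CDK8 and 1.95 with it (difference -0.91 ± 0.18, adjusted p = 0.00599 in edgeR). For CHS it was 0.19 without CDK8 and 1.38 with it (difference -1.20 ± 0.29, adjusted p = 0.0437), and this call was lost in 14 of 22 alternatives, 12 of which left out 1 library, with adjusted p from 0.00338 to 0.103. The differences for CHI (-0.65, 95% interval -1.23 to -0.07), F3'H (-1.63, -3.28 to 0.02), MYB12 (-1.51, -2.98 to -0.04) and MYB111 (-0.54, -1.07 to -0.0012) did not pass after adjustment over all genes. MYB11 held too few counts in cdk8-1 and WT for such a difference to be read. FLS1, CHIL and F3H, with their smaller ref4-3 effect in plants without CDK8, had all risen in cdk8-1 against WT. That rise enters the interaction with a negative sign from the same libraries, so it is no separate observation.

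**Figure D4:**
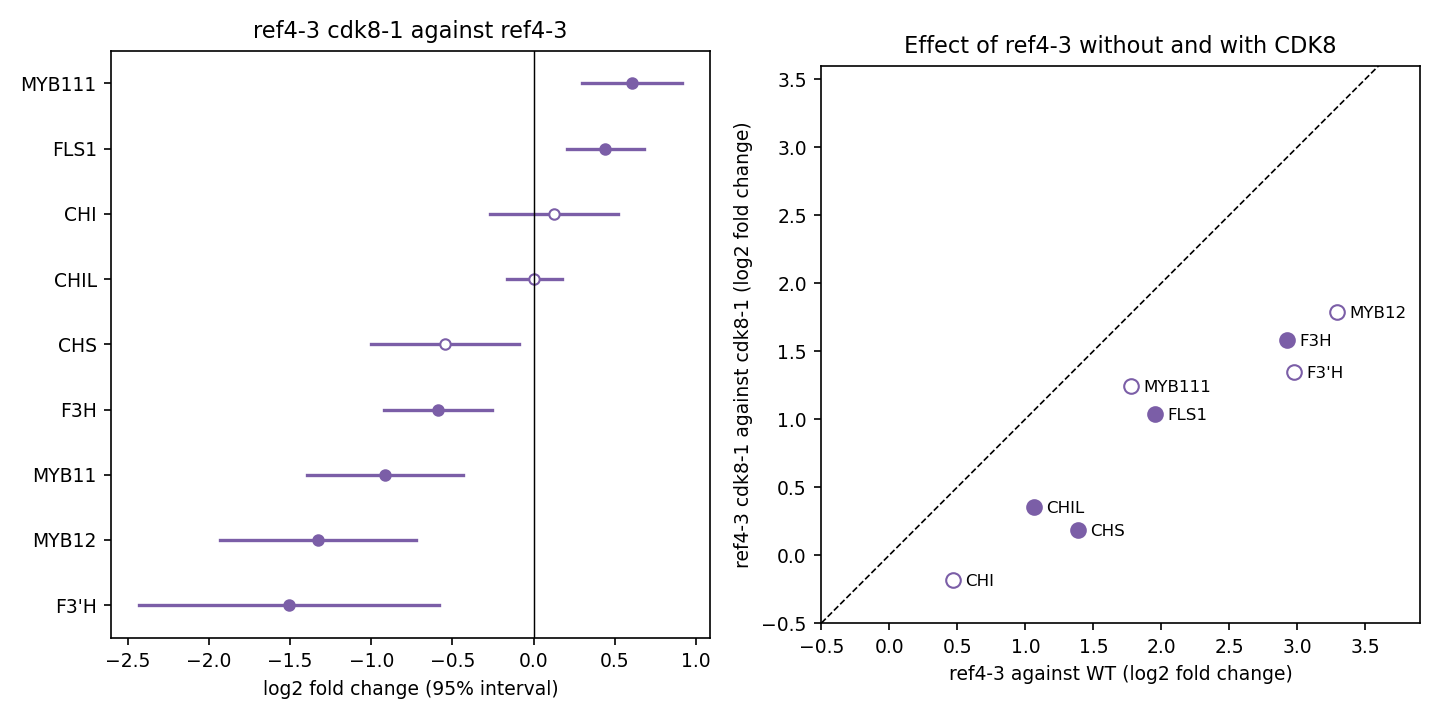
Left, log2 fold change in ref4-3 cdk8-1 against ref4-3 with its 95% interval; filled points passed the adjusted p of 0.05. Right, the log2 effect of ref4-3 without CDK8 (y axis, ref4-3 cdk8-1 against cdk8-1) and with CDK8 (x axis, ref4-3 against WT) for 8 genes, MYB11 left out; the dashed line marks equal effects and filled points passed the interaction test. In the left panel the intervals of MYB111 and FLS1 lie wholly right of 0. The points of CHI and CHIL also lie right of 0, but their intervals span it. All 8 points lie below the line in the right panel.

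The genotypes also differed in the balance between enzymes, read as ratios of CPM per kb within each library. FLS1 over CHS was 0.564, 0.483 and 0.478 in ref4-3 cdk8-1, against 0.350, 0.186 and 0.269 in ref4-3, 0.291, 0.276 and 0.273 in cdk8-1 and 0.132, 0.173 and 0.220 in WT. The double mutant lay above all other libraries, the ref4-1 ones (0.277 to 0.390) included. F3H over CHS was 0.245 to 0.309 in ref4-1, 0.298 to 0.348 in ref4-3 and 0.305 to 0.313 in ref4-3 cdk8-1, and only 0.112 to 0.131 in cdk8-1 and 0.0959 to 0.136 in WT. This ratio parted the libraries by ref4 allele with no overlap, whatever the CDK8 genotype. F3'H over FLS1, the balance of the quercetin hydroxylase to the flavonol synthase, was 0.145, 0.248 and 0.283 in ref4-3 cdk8-1, against 0.525, 1.36 and 0.822 in ref4-3. It was 0.169 to 0.201 in cdk8-1, 0.214 to 0.772 in ref4-1 and 0.272 to 0.681 in WT. CHI over CHS was 0.117 to 0.130 in ref4-1, 0.107 to 0.117 in ref4-3 and 0.170 to 0.183 in the double mutant, against 0.190 to 0.215 in WT, so that every library with a ref4 allele lay below WT. The cdk8-1 libraries, at 0.207 to 0.246, overlapped WT. These ratios are descriptions with no test of their own.

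**Figure D5:**
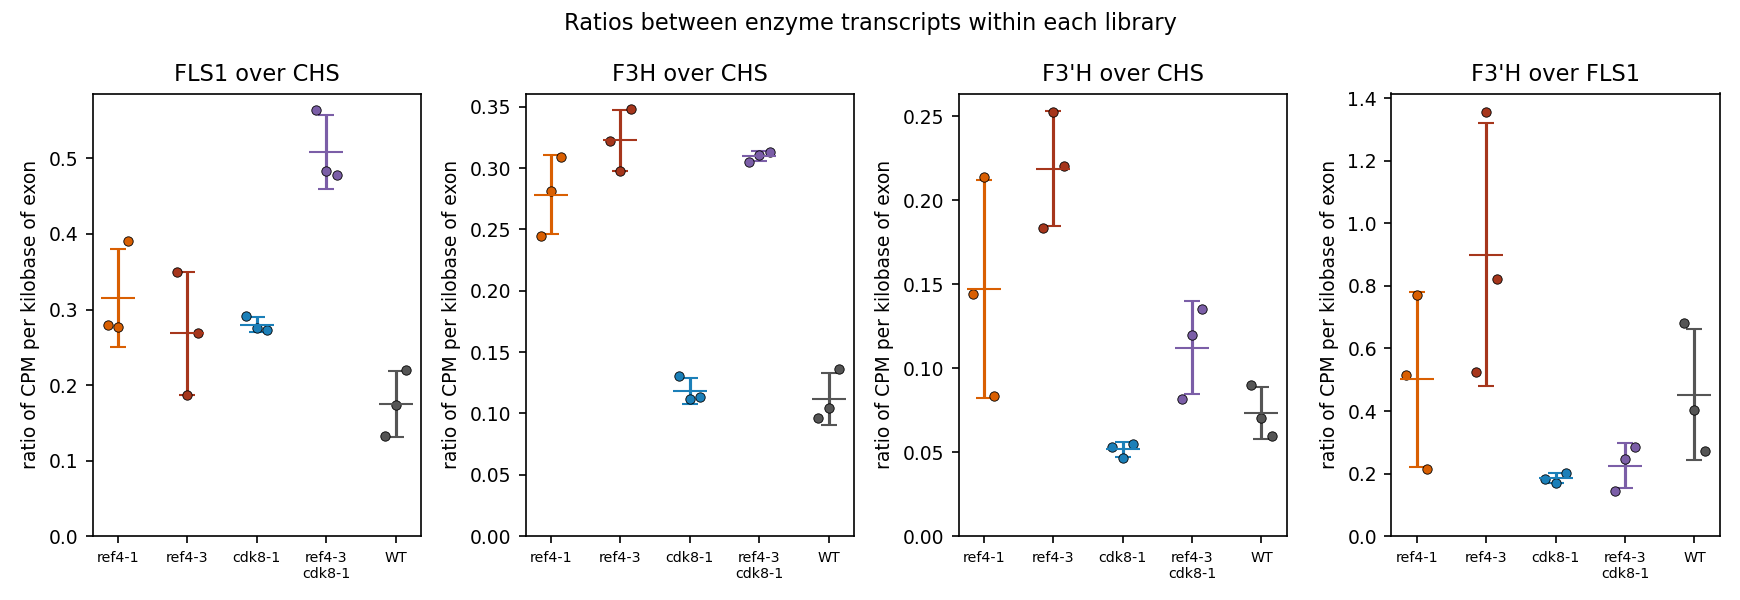
Ratios of CPM per kilobase of exon between enzyme transcripts within each library (y axis, linear), for ref4-1, ref4-3, cdk8-1, ref4-3 cdk8-1 and WT; points are libraries, and bars the mean and SD of 3. FLS1 over CHS averages 0.508 in ref4-3 cdk8-1 and 0.175 in WT, and F3'H over FLS1 averages 0.225 in ref4-3 cdk8-1 and 0.901 in ref4-3.

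Summed over the 6 enzymes, the level was 341 to 379 CPM in ref4-1, 415 to 656 in ref4-3, 247 to 285 in cdk8-1, 330 to 448 in ref4-3 cdk8-1 and 132 to 189 in WT. FLS1 contributed 22.4% of that sum in ref4-3 cdk8-1, against 12.8% in ref4-3 and 10.2% in WT. CHS contributed 46.3% in ref4-3 cdk8-1, 50.7% in ref4-3 and 61.7% in WT. Across the 15 libraries FLS1 followed MYB111 most closely of the 3 regulators (Pearson's r of log2 CPM 0.972), against 0.735 for MYB11 and 0.689 for MYB12. FLS1 followed the enzyme-like CHIL about as closely as MYB111 (0.969). F3H followed MYB11 (0.929) and MYB12 (0.918) more closely than MYB111 (0.826), and MYB11 and MYB12 followed each other (0.952). To each CPM 0.05 was added before the log2. MYB11 held 0 or 1 count and MYB12 3 to 6 in each WT and cdk8-1 library, so their values lean on levels near the floor. The libraries share genotypes, so these values mostly restate the genotype means. After each genotype's mean was removed, the value was 0.649 for FLS1 and MYB111 and 0.647 for FLS1 and CHIL. It was 0.162 for F3H and MYB11, 0.216 for F3H and MYB12 and 0.436 for MYB11 and MYB12. Computed the same way it was 0.944 for CHS and CHI and 0.123 for CHS and FLS1.

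Among 15050 other genes that averaged 5 CPM or more, those with profiles most like the mean of the 6 enzymes over the 15 libraries were GSTU19 (r = 0.967), CSLB03 (0.960), AT5G22020 (0.960) and TT19 (0.959), then SADHU5-1, AT4G09750, PAP1 and NF-YC2, down to 0.950. TT19 is a glutathione S-transferase needed to bring anthocyanins to the vacuole and PAP1 a MYB activator of anthocyanin genes. CSLB03 averaged 18.1 CPM in ref4-1, 25.8 CPM in ref4-3, 8.87 CPM in cdk8-1 and 20.6 CPM in ref4-3 cdk8-1, against 3.68 CPM in WT. The genes most like MYB12 were UGT84A2 (0.975), whose product glucosylates sinapate, CYP81F3 (0.972) and RIPK (0.968). Those most like MYB111 were AT2G37240 (0.965), the tocopherol methyltransferase gene G-TMT (0.962) and the cold-induced KIN2 (0.960). KIN2 averaged 1553 CPM in ref4-3 cdk8-1 and 1011 CPM in ref4-3, against 339 CPM in WT, and its genotype means ran in the order of those of MYB111.

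Genes for flavonol decoration and transport, listed together with the FLS paralogs, did not move as one with FLS1. Of 12 tested genes for flavonol decoration, transport and FLS paralogs, 5 rose and 1 fell in ref4-3 against WT (median 0.17). Of all tested genes 20.2% rose and 19.7% fell there. In cdk8-1 against WT none of the 12 rose and 1 fell, against 8.08% and 11.5% of all tested genes. In ref4-3 cdk8-1 against ref4-3 1 rose and 6 fell, against 16.0% and 16.7%. DTX35, a transporter linked to flavonoid accumulation, rose in ref4-3 by 1.74 ± 0.070 and fell in the double mutant against ref4-3 by 0.81 ± 0.067. RHM1, which makes UDP-rhamnose, rose in ref4-3 by 0.46 ± 0.068, whereas OMT1, a methyltransferase that can act on quercetin and also serves lignin synthesis, fell by 1.32 ± 0.075 on the log2 scale. Of 3 tested CHI-fold relatives, FAP3 and FAP1, fatty-acid-binding proteins of the chloroplast, fell in ref4-3 by 0.80 ± 0.12 and 0.40 ± 0.10, and FAP2 rose by 1.06 ± 0.26. All of these passed in edgeR with adjusted p from 2.02e-14 to 0.00366.

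The anthocyanin branch shares CHS, CHI, F3H and F3'H with flavonols and competes with FLS1 for dihydroflavonols. Of 11 tested genes, 9 rose in ref4-3 against WT (median 1.56), 7 in ref4-1, none in cdk8-1 (median 0.082) and 4 in ref4-3 cdk8-1, and none fell in these comparisons. Among all tested genes, 20.2% rose and 19.7% fell in ref4-3, and 10.7% rose and 10.3% fell in ref4-1, each against WT. For cdk8-1 these shares were 8.08% and 11.5%, and for the double mutant they were 20.9% and 21.7%. When the double mutant was set against ref4-3, 5 of the 11 fell and none rose (median -0.87). There 16.7% of all tested genes fell and 16.0% rose. 3AT1, an anthocyanin acyltransferase, rose in ref4-3 by 2.84 ± 0.39 (adjusted p = 0.000173) and fell in the double mutant against ref4-3 by 0.98 ± 0.31 (adjusted p = 0.0329), in edgeR. UGT79B1, an anthocyanin xylosyltransferase, rose in ref4-3 by 1.91 ± 0.36 (adjusted p = 0.00154) and fell in the double mutant against ref4-3 by 1.27 ± 0.33 (adjusted p = 0.0128). Both falls were lost without the second ref4-3 or the first double-mutant library and with these groups alone, and that of 3AT1 also without the third ref4-3 or the second double-mutant library (adjusted p up to 0.144 for 3AT1 and 0.0756 for UGT79B1). BGLU10, an anthocyanin glucosyltransferase, rose in ref4-3 by 0.67 ± 0.091.

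Among regulators outside the MYB11 family, 13 MYB, bHLH and WD40 genes were tested. In ref4-3 against WT 9 of them rose and 1 fell, against 20.2% and 19.7% of all tested genes. None passed in cdk8-1 against WT, where 19.6% of all tested genes passed. The repressor genes MYB4 (2.70 ± 0.091) and MYB7 (1.81 ± 0.15) and the bHLH gene GL3 (1.01 ± 0.18) rose in ref4-3. In the double mutant against ref4-3 MYB4 fell by 0.86 ± 0.079 (adjusted p = 1.89e-08 in edgeR), while MYB7 differed by -0.028 ± 0.12. Of 14 tested light-signalling genes and other regulators of flavonols, 8 rose and 3 fell in ref4-3, against 20.2% and 19.7% of all tested genes. In cdk8-1 5 of the 14 rose and 1 fell, against 8.08% and 11.5%. HY5, the bZIP activator of MYB12 and MYB111 in light, averaged 12.0 ± 2.22 CPM in ref4-1, 10.5 ± 0.689 CPM in ref4-3, 4.51 ± 0.882 CPM in cdk8-1, 6.99 ± 1.45 CPM in ref4-3 cdk8-1 and 5.09 ± 1.11 CPM in WT. It rose in ref4-1 by 1.22 ± 0.18 and in ref4-3 by 1.05 ± 0.18, and fell in the double mutant against ref4-3 by 0.60 ± 0.17 (adjusted p = 0.00802, and 0.0575 without the second double-mutant library, in edgeR). WRKY23, known to raise flavonols in roots, rose in ref4-3 by 0.87 ± 0.11 and fell in cdk8-1 by 1.22 ± 0.13, and BBX22 rose and BBX24 fell in ref4-3 (0.64 ± 0.078 and -0.48 ± 0.073).

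Of 9 tested genes whose products supply CHS with its substrates, 1 rose and 5 fell in ref4-1 (median log2 fold change -0.58). In ref4-3 2 rose and 5 fell (median -0.53), and in cdk8-1 1 rose and 2 fell (median 0.12). In ref4-3 cdk8-1 2 rose and 6 fell (median -0.75), each against WT. Of all tested genes 10.7% rose and 10.3% fell in ref4-1, and 20.2% and 19.7% in ref4-3. The shares were 8.08% and 11.5% in cdk8-1 and 20.9% and 21.7% in the double mutant. With KFB-CHS, a gene of CHS turnover that completes the list, 2 of 10 rose and 6 fell in ref4-3 (median -0.62). 4CL1 and C4H, which make p-coumaroyl-CoA together with PAL, fell in ref4-3 by 1.37 ± 0.074 and 0.73 ± 0.072. 4CL3, the isoform tied to flavonoids, averaged 25.4 ± 2.75 CPM in ref4-1, 28.1 ± 2.04 CPM in ref4-3, 24.0 ± 2.16 CPM in cdk8-1 and 22.8 ± 0.681 CPM in ref4-3 cdk8-1, against 14.98 ± 2.04 CPM in WT, and rose in all of them. KFB-CHS, the F-box protein gene whose product marks CHS for degradation, averaged 24.5 ± 3.51 CPM in ref4-1, 18.8 ± 3.06 CPM in ref4-3, 47.9 ± 2.91 CPM in cdk8-1 and 17.3 ± 0.630 CPM in ref4-3 cdk8-1, against 62.1 ± 4.67 CPM in WT. On the log2 scale it fell by 1.36 ± 0.0999 in ref4-1, by 1.72 ± 0.10 in ref4-3, by 0.37 ± 0.095 in cdk8-1 and by 1.85 ± 0.10 in ref4-3 cdk8-1 against WT, with adjusted p of at most 0.00741 in edgeR.

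Markers of leaf cells also differed between genotypes. The summed level of 4 mesophyll markers was 17210 to 21800 CPM in ref4-1, 15560 to 17760 in ref4-3, 28620 to 30630 in cdk8-1, 19500 to 20640 in ref4-3 cdk8-1 and 23350 to 25750 in WT. Of these 4 genes 3 fell in each genotype with a ref4 allele and 2 rose in cdk8-1, each against WT. The sum of 4 markers of the epidermis, the layer where flavonols mostly accumulate, was 589 to 822 CPM in ref4-1, 544 to 657 in ref4-3, 670 to 795 in cdk8-1, 537 to 629.8 in ref4-3 cdk8-1 and 780 to 859 in WT. The libraries of ref4-3 and ref4-3 cdk8-1 lay below WT in it, and those of ref4-1 and cdk8-1 overlapped WT. Of these 4 genes 3 fell in ref4-1 (median -0.30) and 3 in ref4-3 (median -0.56), 1 rose and 1 fell in cdk8-1, and 2 fell in ref4-3 cdk8-1, each against WT. For the mesophyll and epidermis markers alike, the shares of all tested genes are those given above for the genes that supply CHS. The 4 guard cell markers summed to 52.3 to 65.5 CPM in ref4-1, 63.4 to 67.1 in ref4-3, 74.7 to 84.2 in cdk8-1, 66.0 to 72.2 in ref4-3 cdk8-1 and 62.4 to 65.8 in WT. The 4 trichome markers summed to 32.8 to 59.0 CPM in ref4-1, 33.9 to 43.2 in ref4-3, 25.4 to 31.4 in cdk8-1, 23.9 to 26.2 in ref4-3 cdk8-1 and 26.6 to 30.7 in WT, and GL3, one of them, also stands in the list of MYB, bHLH and WD40 genes. Of 4 root markers RHD6 was at 0 in every library, COBL9 held 1 count in all and WER 10 to 24 counts per genotype. PYK10 averaged 160.3 CPM in ref4-1, 139 CPM in ref4-3, 341.9 CPM in cdk8-1 and 183 CPM in ref4-3 cdk8-1, against 204 CPM in WT. Against WT it rose in cdk8-1 by 0.75 (adjusted p = 0.00903 in edgeR) and fell by 0.55 on the log2 scale in ref4-3 (adjusted p = 0.0242), and in ref4-3 cdk8-1 it fell below cdk8-1 by 0.90 (adjusted p = 0.00167). The 5 flower markers together stayed below 3.6 CPM and the 4 seed markers reached 1.00 CPM at most. The part of these differences in the flavonol results was not tested.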

How the data were processed

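Libraries were made from pooled whole rosettes with a stranded kit for polyadenylated RNA, per the labels' protocols. The authors deposited whole-number read counts per gene, 1 column per library. Trimmomatic, TopHat2 2.1.0, HTSeq 0.6.1, edgeR and the TAIR10 build are named in the submitters' processing notes. How reads were assigned to genes, with which strand setting and on which annotation release, is not given in the sources used here. Left out were the 5 rows that name no gene. Relative to gene counts they held 0.667% to 1.05% of reads without a feature, 1.63% to 6.67% ambiguous reads and 2.37% to 6.62% reads not uniquely aligned. Gene counts per library ran from 9573567 to 16803904, so 1 count was worth 0.0595 to 0.104 CPM before scaling. Intervals from counts cover counting error only.

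The filter on low counts kept genes that exceeded 1 CPM in 3 or more of 15 libraries (18935 genes, all 9 described genes among them). TMM factors ran from 0.937 to 1.08. One quasi-likelihood model over all 5 genotypes was fitted in edgeR 4.0.16 (R 4.3.3) with a prior count of 0.125, and p-values were adjusted by Benjamini-Hochberg over all genes kept. The robust option of that fit was chosen after the data had been seen. The SE was taken as the log2 fold change divided by the root of F, and levels per kb divide by the exon union of TAIR10.1. The interaction is ref4-3 cdk8-1 minus ref4-3 minus cdk8-1 plus WT. The labels number the libraries 1 to 3 in each genotype without a stated pairing, so replicates were not paired. The test sets each fold change against the spread between these pooled samples, estimated jointly over all 5 genotypes.

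The members and gene lists were chosen with earlier results of these data known. All 9 genes are named. From each list up to 3 genes with the smallest adjusted p in ref4-3 against WT are named, plus KFB-CHS, MYB4, HY5 and 4CL3. WRKY23's value in cdk8-1, CSLB03, KIN2 and the root markers were singled out after their values were seen. Of the 33601 loci, 32834 matched the TAIR10.1 annotation, from which sequences and coordinates were read. The window of 500 bases before the coding start was added after the annotated transcript starts were seen to lie 109 to 286 bases upstream of it.

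Tested on simulated counts for ref4-3 against WT over 18935 genes, the fit recovered 95% of 100 genes changed by 1 on the log2 scale. It recovered 98% of 100 changed by 2, with 9 false calls in all. The changed genes averaged 2 CPM or more, so genes as low as MYB11 and MYB12 were not covered. Far fewer genes were changed than the 39.8% called in the real comparison, so the simulation does not test that setting. Alternatives were RLE size factors, library totals only, no filter on low counts, a replicate block, only the groups compared, DESeq2 1.42.0, each library left out, and, added after the data were seen, the fit without the robust option.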

Additional observations from a re-analysis of the deposited data

Results flagged for a closer look

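For 4 enzymes the effect of ref4-3 differed between plants without and with CDK8, by edgeR's test of the interaction over all genes (n = 3 libraries per genotype). The log2 difference, the effect without CDK8 minus the effect with it, was -1.2 for CHS (adjusted p = 0.0437, a call lost in 14 of 22 alternatives, 12 of which left out 1 library, with adjusted p up to 0.103), -0.706 for CHIL (adjusted p = 0.00162), -1.34 for F3H (adjusted p = 0.0116) and -0.914 for FLS1 (adjusted p = 0.00599). Dixon's test for an outlying value was not run on groups of 3 libraries, and what leaving out each library changed is given with the results and below.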

How the results depend on the processing

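Over 22 alternatives none of the 1584 recomputed fold changes of the 9 genes reversed a call. 1509 kept their side of the threshold, 51 calls were lost and 24 gained. Leaving out 1 library at a time, the number called of the 7 genes above 1 CPM in every library was 5 to 6 in ref4-1 against WT, 6 to 7 in ref4-3 against WT and 5 to 7 in ref4-3 cdk8-1 against WT. It was 3 to 6 in cdk8-1 against WT, where 5 were called with all libraries and 3 without the second cdk8-1 library. It was 3 to 5 in ref4-3 cdk8-1 against ref4-3, 4 to 5 in ref4-3 cdk8-1 against cdk8-1, 1 to 3 in ref4-3 against ref4-1 and 3 to 4 for the interaction. In ref4-3 against ref4-1, 2 of all 9 genes were called, 0 with only these groups in the fit, 1 with DESeq2, and 1 without the first or second ref4-1 library or the second or the third ref4-3 library. The cause was not tested. The count over all genes in that comparison was 2095, but 823 with only its groups and 1040 without the third ref4-3 library. For the interaction it was 1002, but 648 without the third ref4-3, 579 without the second cdk8-1 and 637 without the second WT library. Library totals in place of TMM shifted the median of all genes by 0.17 in ref4-3 against WT, 0.12 in ref4-3 cdk8-1 against WT and 0.11 in ref4-3 cdk8-1 against cdk8-1. Without the robust option 5 further calls passed: CHI in ref4-3 against WT, CHS in cdk8-1 against WT, CHS in ref4-3 cdk8-1 against ref4-3, F3'H in ref4-3 cdk8-1 against cdk8-1 and F3'H in ref4-3 against ref4-1. With the replicate number as a block, the genes called of these 7 were 6 in ref4-1 and 7 in ref4-3, then 6 in cdk8-1 and 7 in the double mutant against WT, 4 in ref4-3 cdk8-1 against ref4-3, 4 in ref4-3 cdk8-1 against cdk8-1, 2 in ref4-3 against ref4-1 and 4 for the interaction. The block added CHI in ref4-3 (adjusted p = 0.0331) and CHS in cdk8-1 (adjusted p = 0.0396) in edgeR and changed no other call of these genes. Deviations of same-numbered libraries correlated at -0.252 to 0.247 over 30 pairs, 7 of them over 0.1. Of 15 libraries 7 deviated most like their own number. These values are a description with no test and cannot decide whether a number marks a shared batch. Depth limits MYB11 and MYB12 most, with 2 to 12 counts each over the 3 cdk8-1 or WT libraries, and changes of F3'H are limited by the spread between its replicates.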
